A study of Mus musculus with 12 samples.

Results

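The subunits of the respiratory chain were read from RNA sequencing of heart ventricles of mouse embryos at embryonic day 12.5, with 6 control libraries and 6 libraries of Wnt gain of function. Genes were taken by symbol: the Nduf subunits, Sdha to Sdhd, the Uqcr genes, Cyc1 and Cycs, the Cox4 to Cox8 genes, the Atp5 genes, and the protein genes of the mitochondrial genome (mtDNA). Of 40800 gene IDs, 99 were protein-coding and had such a symbol, and 91 reached the required mean of at least 1 CPM (counts scaled to the size of the library) over the 12 libraries. These 91 members comprised 84 nuclear-encoded and 7 mtDNA-encoded genes. By complex, 40 belonged to complex I, 4 to complex II, 10 to complex III, 16 to complex IV and 15 to complex V. The other 6 were cytochrome c (Cycs), the Ndufa4 pair, the supercomplex factor Cox7a2l, and Atp5s and Atp5sl, which carry the name of the ATP synthase without being among its established subunits.

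The labels name the 2 groups only as control and wnt gof, so the allele, the Cre driver, the cells in which the pathway was raised and the number of embryos per library are not given. Nothing in the labels says that the libraries of a group came from separate hearts, so the p-values reflect spread among libraries that may be technical. Total counts ran from 10130088 to 17526325 per library. Axin2, a direct target of Wnt signalling, lay between 1.39 and 4.13 CPM in the controls and between 3.77 and 26.0 CPM in the Wnt gain-of-function libraries (log2 fold change 2.62, SE 0.40, adjusted p = 0.0145). The library labelled Wnt gain of function 5 was the one at 3.77 CPM, within the control range, so results are also given without it. All 11 ventricular cardiomyocyte markers were detected, at a summed 33734 to 44985 CPM in the controls and 32965 to 42254 CPM in the Wnt gain-of-function libraries. Of these markers 1 passed the test, Hey2, a transcription factor of compact myocardium, with 97.4 ± 6.90 CPM in the controls and 72.4 ± 5.64 CPM in Wnt gain of function (SD, n = 6 each; adjusted p = 0.0145 in edgeR). The 7 mural cell markers summed to 1616 to 2007 CPM and 1526 to 1750 CPM in the same order, and 1 passed, the pericyte marker Rgs5, with 78.8 ± 29.7 and 13.5 ± 9.17 CPM (adjusted p = 0.0404 in edgeR). The part of these cells in the members' differences was not tested. Endothelial and endocardial markers summed to 730 to 816 CPM and 805 to 871 CPM, and haemoglobin genes took 0.948% to 8.73% of the counts of a library. The tissue was sequenced in bulk, so fewer cells of a type and less RNA per cell cannot be told apart.

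The respiratory chain sits in the inner mitochondrial membrane. Complexes I and II pass electrons from NADH and succinate to coenzyme Q, complex III passes them on to cytochrome c, and complex IV hands them to oxygen. Complexes I, III and IV pump protons, and the ATP synthase, complex V, uses the gradient to make ATP. A few core subunits of complexes I, III, IV and V are encoded in mtDNA, and all other subunits are nuclear genes whose proteins are imported. The heart depends on this machinery, and several complex IV subunits have a heart and skeletal muscle isoform beside one found in most tissues.

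Of the 13 protein genes of mtDNA, 6 were all but absent from the count table while their neighbours were among its most abundant transcripts. These 6 were mt-Co2 and mt-Co3 of complex IV, mt-Atp6 and mt-Atp8 of complex V, and mt-Nd3 and mt-Nd4l of complex I, and each fell under the limit of 1 CPM. They lie side by side at chrM:6942-10173, a stretch of 10 genes including transfer RNAs, and these 10 genes summed to 18 counts over all 12 libraries. Directly upstream, mt-Co1 reached 3378 to 7215 CPM in the controls, and directly downstream mt-Nd4 reached 1751 to 2510 CPM. A nuclear copy of the same stretch is annotated on chromosome 1, on the minus strand between positions 24611535 and 24616197 (GENCODE M21, GRCm38). The copies of mt-Nd4l (Gm10222), mt-Co3 (Gm28437), mt-Atp6 (Gm10925) and mt-Co2 (Gm28661) had 0 base differences from the mtDNA gene over their annotated length, and so had the copy of the first 876 bases of mt-Nd4 (Gm28439). A read from such a segment fits both places equally well, and how reads with several matches were counted is not given in the sources used here. The copies with 0 differences were near 0 as well, with at most 14 counts in any library. For mt-Atp8, which lies within the stretch, 0% of its 50-base stretches were in an annotated pseudogene. On chromosome 1 the copy of mt-Atp6 ends at position 24614651 and that of mt-Co2 starts at 24614885. The bases between them hold none of these annotated copies and were not compared, so a match to mt-Atp8 there was not tested.

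The exception was the copy of mt-Nd3, Gm28438, which held 757 to 1687 counts per library. It differs from mt-Nd3 by 1 base over 345 compared bases, T3C, with positions counted from 1 at the gene's 5′ end and the mtDNA base first. The first 60 bases of both are shown because this base is all that separates a gene listed near 0 from a copy with counts. The differing base is in capitals, and the sequences are those of GENCODE M21, from chrM:9459-9518 on the plus strand and chr1:24613060-24613119 on the minus strand.

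mt-Nd3: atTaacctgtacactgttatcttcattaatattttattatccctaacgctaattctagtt

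Gm28438: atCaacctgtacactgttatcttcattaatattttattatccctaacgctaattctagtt

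In the controls Gm28438 lay between 61.1 and 123 CPM, with a median of 94.4, and in the Wnt gain-of-function libraries between 60.3 and 110 CPM, with a median of 76.9. mt-Nd3 itself reached at most 0.148 CPM in any library. Counts assigned to this copy and to mt-Nd3 can therefore not be read as a nuclear and a mitochondrial transcript. The values of the 6 genes say nothing about their level in the ventricle. Only the 7 other mtDNA genes are described further, and of these mt-Co1 and mt-Nd4 share 51.1% and 62.2% of their 50-base stretches with an annotated pseudogene.

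**Figure D1:**
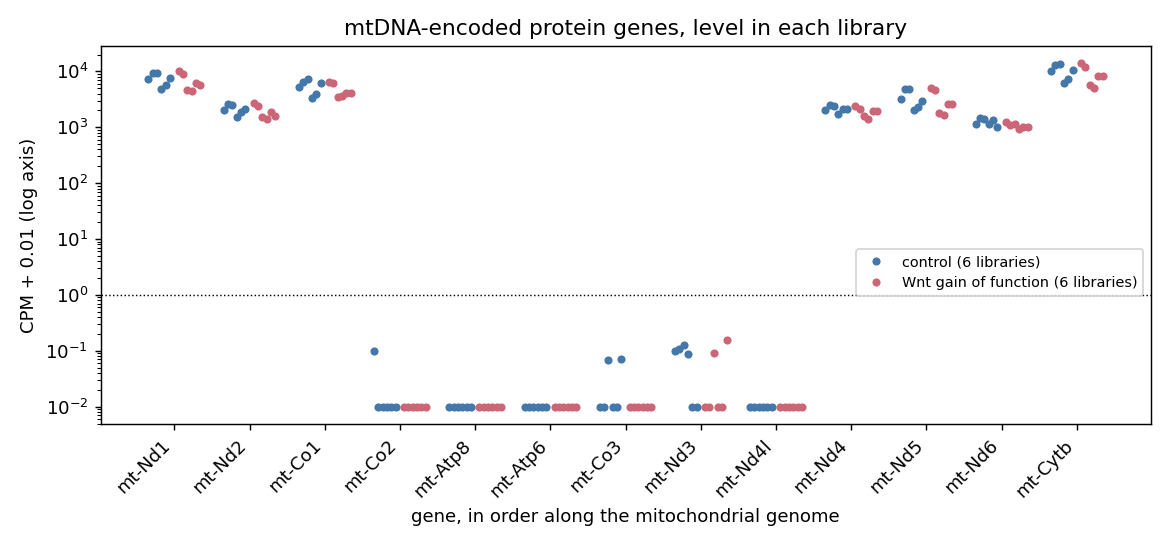
Level of each of the 13 mtDNA-encoded protein genes in each library (CPM plus 0.01, log axis; 6 control and 6 Wnt gain-of-function libraries; dotted line at the limit of 1 CPM), in order along the mitochondrial genome. The 6 genes from mt-Co2 to mt-Nd4l lie near 0 in both groups, between mt-Co1 and mt-Nd4, which reach 1378 CPM or more in every library.

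The same question arose for nuclear members. Of the 84, 51 shared no 50-base stretch of their representative transcript with an annotated pseudogene, and 9 shared at least 25%: Atp5g2, Atp5l, Cox7c, Atp5h, Uqcrb, Ndufs3, Ndufb4, Ndufs5 and Ndufa12. Over the 12 libraries, scaled by library size alone, these 9 had a median of 57.8 CPM per kb of transcript, against 405 CPM per kb for the other 75. Atp5g2, a gene for the membrane ring subunit c of the ATP synthase, shared the most (87.4%) and had 6.74 CPM per kb in the controls. Its paralogue Atp5g3, which encodes the same mature protein and shared 0%, had 1243 CPM per kb. Stretches shared with other annotated genes were not part of this count. With them, Atp5o shared 50.3%, Atp5f1 38.7%, and Cycs and Ndufa13 28.5% each, among others. Levels of the 9 genes and of these others are uncertain to an extent that was not tested.

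**Figure D2:**
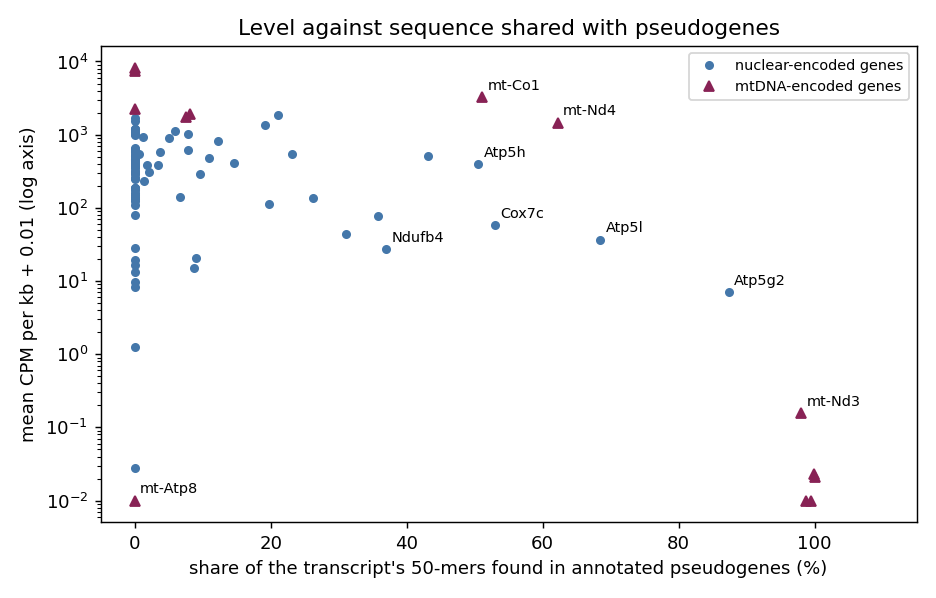
Mean level over 12 libraries (CPM per kb of representative transcript plus 0.01, log axis) against the share of each transcript's 50-base stretches found in an annotated pseudogene, for nuclear-encoded (circles) and the 13 mtDNA-encoded genes (triangles). Atp5g2, at 87.4% shared, is among the lowest nuclear members. CPM is scaled here by library size alone.

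Outside the missing stretch, mtDNA transcripts were abundant per length. Their control levels ran from 1566 CPM per kb for mt-Nd4 to 8759 CPM per kb for mt-Cytb, with a median of 2405. The values of mt-Nd4 and mt-Co1 are uncertain, since much of each is shared with an annotated pseudogene and the full length was used. The size of this effect was not tested. Nuclear members of complex V had a median of 930 CPM per kb in the controls, those of complex III 479, of complex II 470, of complex IV 450 and of complex I 315. Levels within a complex also varied, as from 14.3 CPM per kb for Cox4i2 to 1928 for Cox6c in complex IV. The highest in complex I was Ndufb9 (660), in complex II Sdhb (696), in complex III Uqcr10 (1737) and in complex V Atp5o (1372). Together the nuclear members took 3.23% to 3.92% of the counts of a library, and the mtDNA protein genes 1.88% to 4.12%. The protein genes of the missing stretch added almost no counts to the mtDNA share, and their level in the ventricle is not known. The mtDNA share therefore covers only the genes outside that stretch and cannot be read as the full part of mtDNA. The uncertainty of mt-Nd4 and mt-Co1 applies to it as well.

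Between the groups, 0 of the 91 members passed the test in either direction (edgeR quasi-likelihood test, adjusted p under 0.05 over 14774 genes). Over all genes tested, 0.501% passed, 0.433% as higher and 0.0677% as lower. The lowest adjusted p of a member was 0.446, for Cox7a1. At an unadjusted p under 0.05 there were 4 members, all lower in Wnt gain of function, against a background of 6.3% in either direction and 2.57% lower. The groups overlapped for each of the 91, where 0.46% of all tested genes had groups that did not overlap. By the authors' deposited table, likewise, 0 of the 91 had an adjusted p under 0.05, with a smallest adjusted p of 0.520.

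The differences were small and mostly on the same side. The log2 fold change was below 0 for 79 of the 91 members, 72 of the 84 nuclear-encoded and 7 of the 7 mtDNA-encoded, against 49.6% of all tested genes and 48% of those with at least 20 CPM. Members moved together between libraries, as described further on with the library sets, so the 79 are not independent results. The median was -0.05 over the 91 members and 0.00 over all tested genes. The values of single members ran from -0.46 (Cox8b) to 0.16 (Atp5g2), and for 84 of the 91 the 95% interval lay within 0.5 of 0 on the log2 scale. The same held for 9468 of all 14774 tested genes and for 6475 of the 7090 with at least 20 CPM. With 1 library left out at a time, the number of members below 0 went from 60 without control 2 to 87 without control 1, and the median from -0.02 to -0.09. Without the library labelled Wnt gain of function 5, 0 members passed, against 1.19% of all genes, 69 of the 91 were below 0, against 50% of all genes, and the median was -0.04. At an unadjusted p under 0.05 there was then 1 member, Cox7a1, against 7.7% of all genes. No member passed in DESeq2 (1.08% of all genes), in limma-voom (0.0406%) or with the closest library pairs summed, as described further on (0.00662%).

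**Figure D3:**
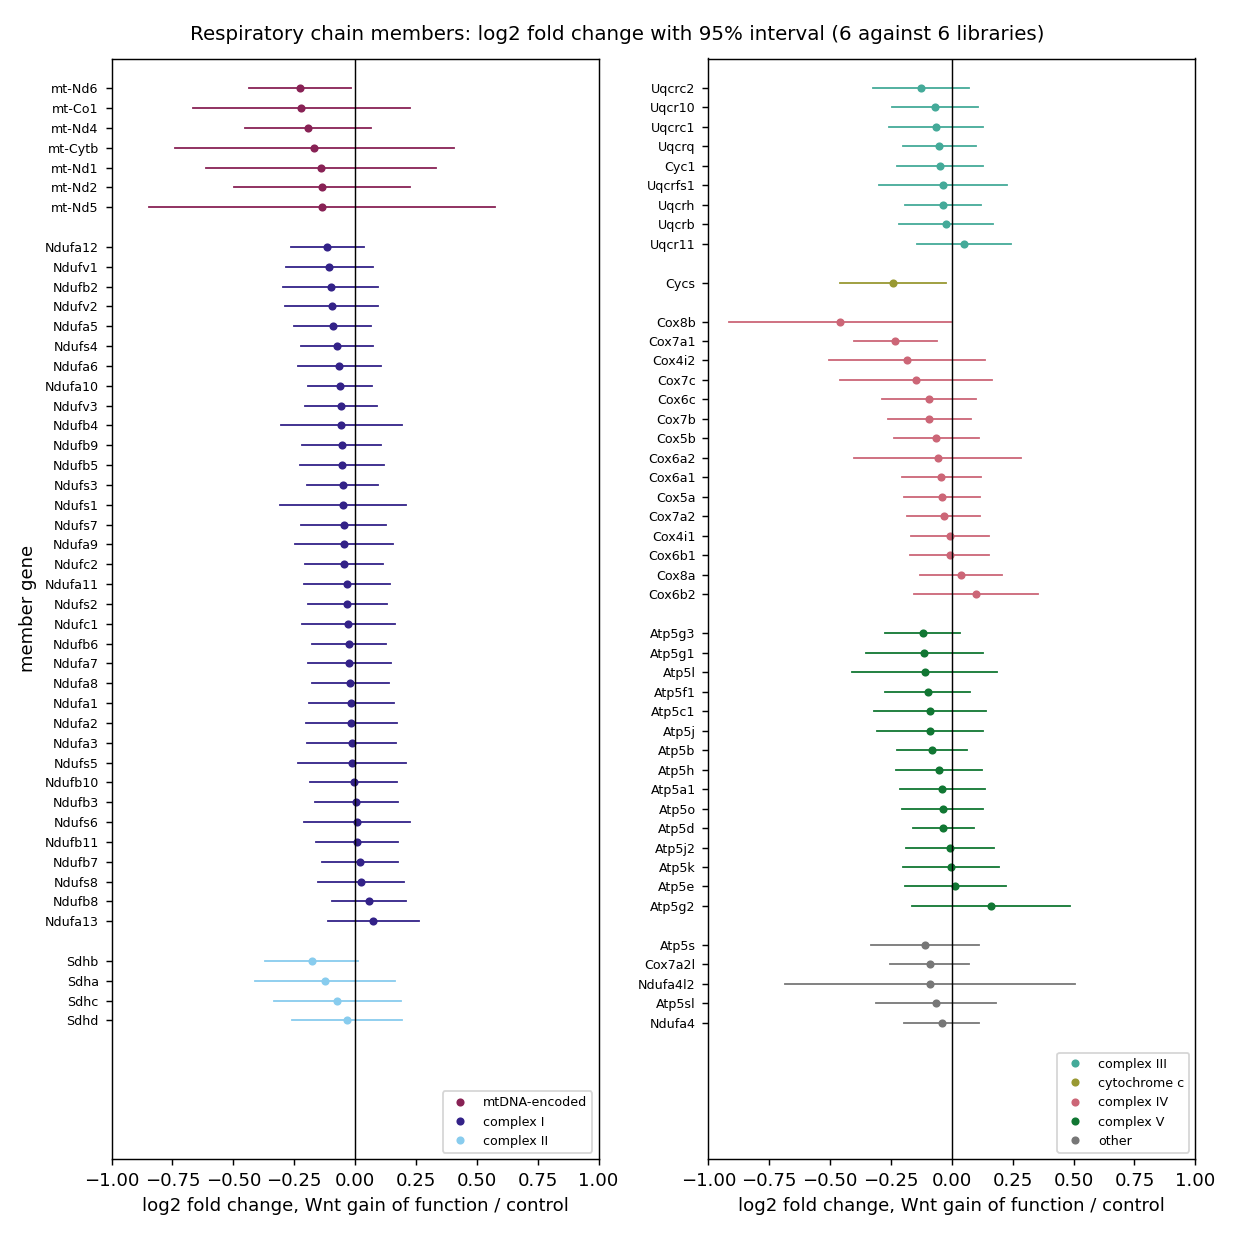
Log2 fold change of each of the 91 members, Wnt gain of function against control (6 against 6 libraries), with its 95% interval, grouped by complex. Most points lie slightly left of 0, and 84 of the 91 intervals stay within 0.5 of 0. The same holds for 6475 of the 7090 tested genes with at least 20 CPM.

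Complex I takes electrons from NADH. Its 35 nuclear-encoded members included 0 with an unadjusted p under 0.05 and had a median log2 fold change of -0.03, with 28 below 0. The 7 core subunits, which carry the flavin and the iron-sulphur clusters, had a median of -0.05, and the 28 accessory subunits, which surround them, -0.03. The member with the lowest p was the accessory subunit Ndufa12. In the controls it had a lowest, median and highest value of 144, 155 and 170 CPM, and in the Wnt gain-of-function libraries 132, 140 and 160 CPM (log2 fold change -0.11, SE 0.07, adjusted p = 0.988). Although 4 Wnt gain-of-function libraries were below every control, the groups overlapped. At the other end stood Ndufa13, also known as the cell death factor GRIM-19, with 239, 288 and 339 CPM in the controls and 273, 298 and 332 CPM in Wnt gain of function (0.07, SE 0.09). All 35 intervals lay within 0.5 of 0.

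Complex II, succinate dehydrogenase, belongs to both the tricarboxylic acid cycle and the chain and has no mtDNA-encoded subunit. All 4 of its members were below 0, with a median of -0.10, and 0 passed the test. Sdhb, its iron-sulphur subunit, had a lowest, median and highest value of 683, 786 and 930 CPM in the controls and 639, 666 and 806 CPM in Wnt gain of function (log2 fold change -0.18, SE 0.09, adjusted p = 0.857). Of the Wnt gain-of-function libraries, 4 lay below every control, and the other 2 lay inside the control range. The membrane anchor Sdhd was nearest to 0, with 538, 664 and 749 CPM against 568, 595 and 779 CPM (-0.03, SE 0.11). The flavoprotein Sdha had a value of -0.12 (SE 0.14) and the second anchor Sdhc -0.07 (SE 0.12).

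Complex III hands electrons from coenzyme Q to cytochrome c. Of its 9 nuclear-encoded members, 8 were below 0, with a median of -0.05, and 0 had an unadjusted p under 0.05. Uqcrc2, a core protein of the complex, had 799, 899 and 1042 CPM in the controls and 715, 828 and 973 CPM in Wnt gain of function (lowest, median and highest; -0.12, SE 0.09, adjusted p = 0.999). Uqcr11, a small accessory subunit, was the member above 0, with 174, 211 and 259 CPM against 196, 216 and 251 CPM (0.05, SE 0.09). Cyc1, the haem-bearing cytochrome c1, was at -0.05 (SE 0.08), with 265 to 315 CPM in the controls and 233 to 320 CPM in Wnt gain of function.

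Cytochrome c itself, encoded by Cycs, carries electrons from complex III to complex IV and also triggers caspase activation when released from mitochondria. Control libraries had a lowest, median and highest value of 42.7, 51.1 and 63.6 CPM, and Wnt gain-of-function libraries 38.4, 42.5 and 53.3 CPM. Of the latter, 3 lay below every control and 5 below the control median, so the groups overlapped. The log2 fold change was -0.24 (SE 0.10, unadjusted p = 0.0311, adjusted p = 0.672), and without the library labelled Wnt gain of function 5 it was -0.23 (unadjusted p = 0.0568).

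Complex IV, cytochrome c oxidase, had the widest range of differences, and the lowest values in it belonged to muscle isoforms. Of its 15 nuclear-encoded members, 13 were below 0, with a median of -0.06, and 2 had an unadjusted p under 0.05. Both of these, Cox7a1 and Cox8b, encode the isoform that heart and skeletal muscle use in place of Cox7a2 and Cox8a. Cox7a1, at chr7:30184144-30186078 on the plus strand, had a lowest, median and highest value of 87.4, 111 and 119 CPM in the controls. In Wnt gain of function the values were 86.1, 88.8 and 100 CPM. All 6 Wnt gain-of-function libraries were below the control median, but controls 1 and 4, at 87.4 and 97.0 CPM, lay among them. The log2 fold change was -0.23 (SE 0.08, unadjusted p = 0.0113, adjusted p = 0.446). Cox7a2 had 598, 663 and 745 CPM in the controls and 610, 644 and 702 CPM in Wnt gain of function (-0.03, SE 0.07).

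The share of Cox7a1 in the sum of Cox7a1 and Cox7a2 does not depend on the scaling of libraries. Taken per length of transcript, it was 21.1% ± 1.13 (SD, n = 6) in the controls, with a range of 19.7% to 22.8%, and 19.0% ± 0.338 (SD, n = 6) in Wnt gain of function, with a range of 18.4% to 19.4%. The ranges did not overlap, by a margin of less than 1 percentage point. This share was 1 of 6 such isoform shares computed and was not tested.

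Cox8b, at chr7:140898945-140900446 on the minus strand, had a lowest, median and highest value of 28.0, 38.8 and 71.4 CPM in the controls and 28.0, 30.8 and 42 CPM in Wnt gain of function. Controls 2 and 3, at 71.4 and 62.6 CPM, stood above all other libraries, and the remaining 4 controls, at 28.0 to 41.1 CPM, covered about the same range as the Wnt gain-of-function libraries. The log2 fold change was -0.46 (SE 0.21, unadjusted p = 0.0483, adjusted p = 0.783), and without control 2 it was -0.29. Cox8a, the isoform of most tissues, had 208, 259 and 274 CPM against 232, 249 and 279 CPM (0.04, SE 0.08). Per length, Cox8b made up 21.5% ± 5.56 (SD, n = 6) of the sum of Cox8a and Cox8b in the controls and 16.5% ± 1.61 (SD, n = 6) in Wnt gain of function, with overlapping ranges of 15.8% to 29.7% and 14.4% to 18.7%.

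The third muscle isoform, Cox6a2, did not share this pattern. It had 255, 299 and 414 CPM in the controls and 236, 291 and 425 CPM in Wnt gain of function (-0.06, SE 0.16), and its share of the sum of Cox6a1 and Cox6a2 per length was 36.2% ± 3.54 and 35.8% ± 3.82 (SD, n = 6 each). Its ubiquitous partner Cox6a1 was at -0.04 (SE 0.08). The remaining minor isoforms were rare. Cox4i2, the oxygen-regulated isoform best known from lung, made up 0.910% ± 0.174 of the Cox4i pair in the controls and 0.797% ± 0.123 in Wnt gain of function (SD, n = 6 each). Cox6b2, known as a testis isoform, made up 2.46% ± 0.343 and 2.61% ± 0.367 of its pair, and with a log2 fold change of 0.10 (SE 0.12) was the highest in complex IV. Cox4i1 and Cox6b1, which make up nearly all of those pairs, were each at -0.01 (SE 0.08), and Cox7b at -0.09 (SE 0.08). Cox7b2 and Cox8c, a pair of testis isoforms, were under the limit, at a mean of 0.683 and 0.00823 CPM. The members nearest above the limit were Atp5g2 at 5.21 CPM and Ndufa4l2 at 7.70 CPM.

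**Figure D4:**
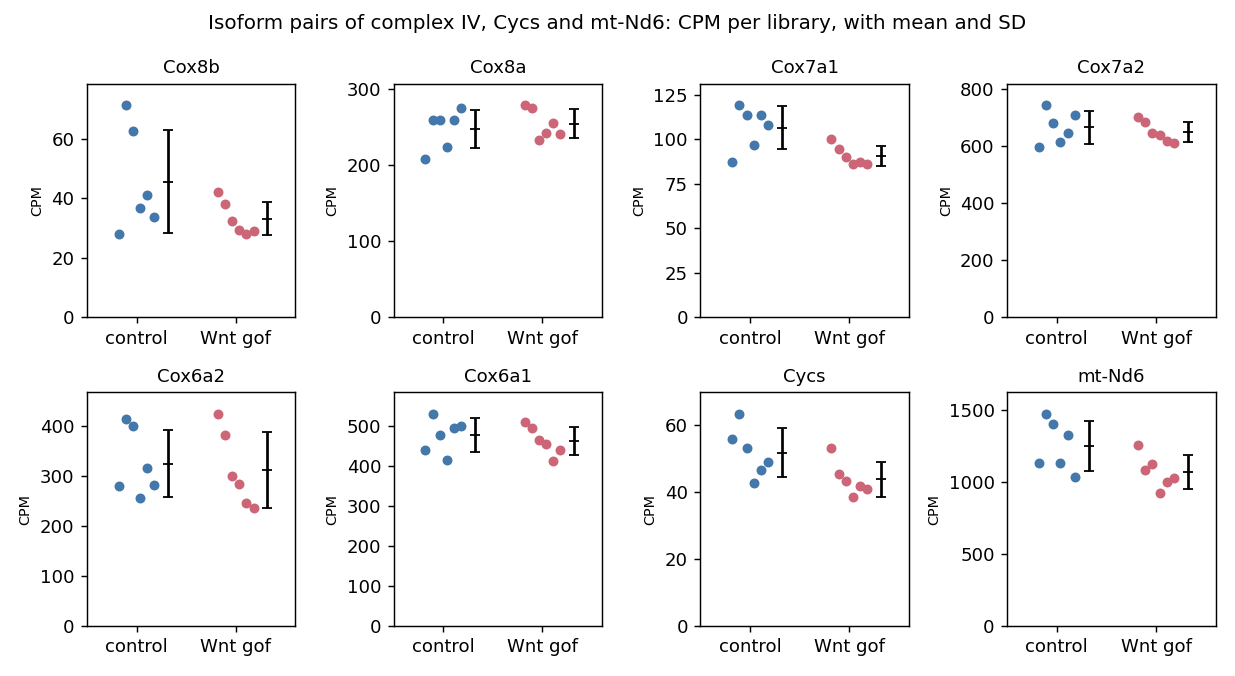
CPM in each library (points) with the mean and SD of each group (bars, 6 libraries each) for 3 isoform pairs of complex IV, for Cycs and for mt-Nd6; each axis starts at 0. Cox7a1 lies lower in Wnt gain of function but for controls 1 and 4, which overlap it, and the spread of Cox8b in the controls comes from controls 2 and 3.

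Ndufa4 was first described as a complex I protein and is now counted as a subunit of complex IV, and Ndufa4l2 is its hypoxia-induced paralogue. Ndufa4 had 653, 740 and 804 CPM in the controls and 671, 709 and 781 CPM in Wnt gain of function (-0.04, SE 0.07). Ndufa4l2 made up 0.711% ± 0.225 and 0.674% ± 0.273 of the pair (SD, n = 6 each). Cox7a2l, which joins complexes III and IV, had 103, 130 and 140 CPM against 112, 120 and 130 CPM (-0.09, SE 0.08). All 6 Wnt gain-of-function libraries were below its control median, but none was below the lowest control.

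Complex V makes ATP. Of its 15 nuclear-encoded members, 13 were below 0, the median was -0.05, and 0 had an unadjusted p under 0.05. The catalytic subunit Atp5b had 1868, 1991 and 2238 CPM in the controls and 1779, 1910 and 1991 CPM in Wnt gain of function (-0.08, SE 0.07). Subunit c is encoded by Atp5g1, Atp5g2 and Atp5g3. Atp5g3 had the lowest p and the lowest value of the complex, with 806, 904 and 963 CPM against 734, 810 and 903 CPM (-0.12, SE 0.07, adjusted p = 0.981). Atp5g1 was at -0.11 (SE 0.11) and Atp5g2 at 0.16 (SE 0.15), where the Wnt gain-of-function libraries 1 and 2, at 7.45 and 6.74 CPM, stood above the other 10 libraries at 4.46 to 5.32 CPM.

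The 7 mtDNA-encoded members varied more between libraries of a group than the nuclear-encoded ones. Their coefficient of variation within groups had a median of 28.1%, against 9.77% for the nuclear-encoded members and 11.3% for all tested genes of at least 20 CPM. mt-Cytb, the mtDNA-encoded core of complex III, had a lowest, median and highest value of 6130, 10298 and 13294 CPM in the controls and 5092, 8264 and 14034 CPM in Wnt gain of function (log2 fold change -0.17, SE 0.26). mt-Nd5, a proton-pumping subunit of complex I, had 1994, 3078 and 4904 CPM against 1628, 2633 and 4962 CPM (-0.14, SE 0.33). In both genes the ranges of the groups coincided almost fully. mt-Nd1 was at -0.14 (SE 0.22), mt-Nd2 at -0.14 (SE 0.17), mt-Nd4 at -0.19 (SE 0.12) and mt-Co1, the catalytic subunit of complex IV, at -0.22 (SE 0.21). Single libraries moved these values. The median of the 7 members, -0.17, went to -0.29 without Wnt gain of function 1 and to -0.07 without Wnt gain of function 4. It was at -0.08 without control 2, without control 3 or without Wnt gain of function 3, and mt-Cytb ranged from -0.34 to -0.05 and mt-Nd1 from -0.29 to -0.05 over the libraries left out.

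mt-Nd6 is the 1 protein gene on the other strand of mtDNA, and its spread was smaller. It had 1030, 1229 and 1472 CPM in the controls and 918, 1052 and 1256 CPM in Wnt gain of function, and 3 of the 6 Wnt gain-of-function libraries lay below every control. The log2 fold change was -0.23 (SE 0.10, unadjusted p = 0.0370, adjusted p = 0.709), and without the library labelled Wnt gain of function 5 it was -0.21 (unadjusted p = 0.0708). It overlaps the end of mt-Nd5, and whether reads were counted by strand is not given in the sources used here, so transcripts of the opposite strand may be included. The ratio of mt-Nd5 to mt-Nd6 went from 1.57 to 4.29 over the 12 libraries.

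This spread followed 3 sets of libraries, each with libraries of both groups. The sets came from clustering the deviations of the libraries from their group means over all tested genes, so they describe these libraries and are no batch that the labels name. Set 1 held controls 1 and 6 and Wnt gain of function 5 and 6, set 2 controls 2 and 3 and Wnt gain of function 1 and 2, and set 3 controls 4 and 5 and Wnt gain of function 3 and 4. The mtDNA protein genes took 3.73% to 4.12% of counts in set 2 and 1.88% to 2.39% in set 3. By set and group, controls 2 and 3 had 3.92% and 4.08% and Wnt gain of function 1 and 2 had 4.12% and 3.73%. Controls 4 and 5 had 2.05% and 2.39%, and Wnt gain of function 3 and 4 had 1.99% and 1.88%. Controls 1 and 6 had 3.14% and 3.31%, and Wnt gain of function 5 and 6 had 2.49% and 2.67%. Sets 2 and 3 thus differed by more than the groups did, and only in set 2 did the groups overlap.

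By ratio, mt-Nd5 differed most of the members between sets 2 and 3, at a mean of 4814 CPM in set 2 and 1913 CPM in set 3, and mt-Cytb averaged 13114 and 6020 CPM. Of the 7 mtDNA members, 5 were above set 3 in every library of set 2, and of the 84 nuclear members 22 were, with 0 of either kind below. Over all tested genes 17.2% were above and 16.8% below. The 22 included 4 of 4 members of complex II, with a mean of 1373 CPM in set 2 and 914 CPM in set 3 for Sdha, and the muscle isoform Cox6a2, with 405 and 288 CPM. Mitochondrial ribosomal RNA did not move with the mtDNA protein genes. It took 2.48% to 3.27% of counts in set 2 and 2.77% to 4.48% in set 3. Haemoglobin genes took 0.948% to 1.26% in set 2, 3.69% to 7.37% in set 3 and 1.45% to 8.73% in set 1. Without haemoglobin genes in the total, mtDNA protein genes took 3.77% to 4.17% in set 2 and 1.95% to 2.58% in set 3. Heart muscle markers differed between sets 2 and 3 as well. Ventricular cardiomyocyte markers summed to 41622 to 44985 CPM in set 2 and 35003 to 37661 CPM in set 3, and the 7 atrial cardiomyocyte markers to 2769 to 3765 CPM and 4288 to 4920 CPM. In set 1 the ventricular sums were 32965 to 37874 CPM and the atrial sums 4417 to 5362 CPM, both overlapping set 3. Ddx3y, which is Y-linked, lay at 201 to 236 CPM in set 2 and 0.477 to 1.81 CPM in set 3, and Xist, expressed from the inactive X, at 3.67 to 4.36 and 367 to 436 CPM. Set 1 was mixed in this respect. Its controls 1 and 6 had 235 and 173 CPM of Ddx3y and 2.74 and 4.70 CPM of Xist, Wnt gain of function 5 had 0.888 and 386 CPM, and Wnt gain of function 6 had both, at 88.2 and 231 CPM. The groups of set 1, in which the mtDNA shares did not overlap, thus differed in these genes too. The part of blood content, cell composition, sex or RNA quality in the members' levels was not tested. With Ddx3y as a covariate 0 members passed the test, against 0.873% of all genes, and 77 of the 91 were below 0. The median log2 fold change of the mtDNA-encoded members was then -0.05, against -0.17 without the covariate, and that of all members -0.03, against -0.05.

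**Figure D5:**
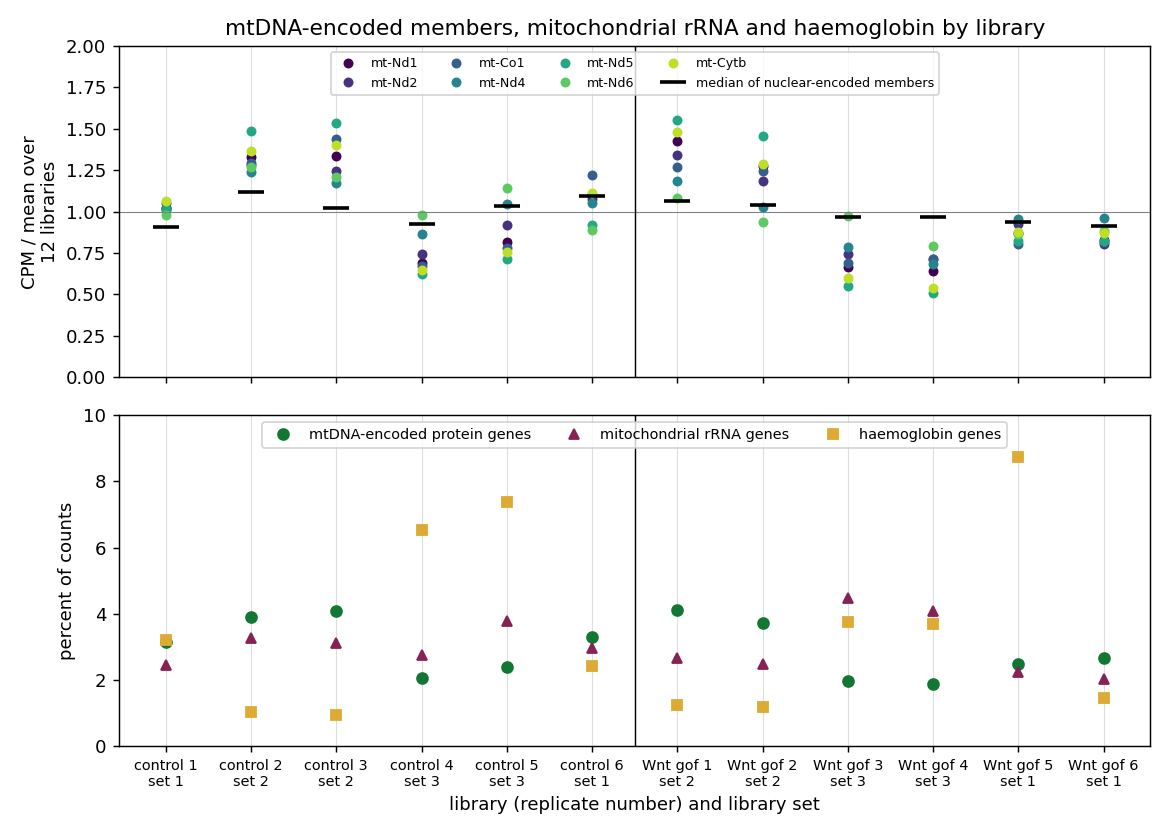
Above, CPM of each mtDNA-encoded member divided by its mean over the 12 libraries (points) and the median of the same ratio over the 84 nuclear-encoded members (bars), by library. Below, percent of counts on mtDNA-encoded protein genes, mitochondrial rRNA and haemoglobin. The 4 libraries of set 2 are high in mtDNA protein genes and low in haemoglobin, and the 4 of set 3 the reverse. In set 1 haemoglobin ranges from 1.45% to 8.73%.

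The groups were also compared within these sets. With the sets as a block, 14 of the 91 members had an unadjusted p under 0.05, all of them lower, against a background of 12.6% in either direction, 6.34% lower and 6.23% higher. These 14 included 7 of 7 mtDNA-encoded members, with log2 fold changes from -0.15 (mt-Nd2) to -0.22 (mt-Nd6). The others were Cox8b, Cox7a1, Cycs, Sdhb, Sdha, Uqcrc2 and Atp5g3. Members moved together between libraries, so the 14 are not independent results. In set 1 the groups also differed in Ddx3y and Xist, and the block does not separate this from the group. In that fit Cox8b passed the test (log2 fold change -0.41, adjusted p = 0.0267, edgeR), where 0.677% of all genes passed as lower and 2% in either direction, and Cox7a1 missed it at an adjusted p of 0.0536. The sets were derived from the libraries being compared, and sets 2 and 3 hold pairs of a group that may not be separate samples. The 3 closest pairs, Wnt gain of function 3 and 4, Wnt gain of function 1 and 2 and controls 2 and 3, had a mean chi-square per gene of 3.07, 3.10 and 3.32, above the value of about 1 that sampling alone gives, and the next pair 12.8. With those 3 pairs summed into 1 sample each, 1 of the 91 members had an unadjusted p under 0.05, against a background of 3.97%, and Cox8b was at -0.37 (unadjusted p = 0.129).

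Nuclear genes of the chain are known targets of the transcription factors NRF1 and GABP and of YY1, so their promoters were searched for the letters of these sites. RefSeq promoter windows of 300 bases, 250 before to 50 after the start (GRCm38.p6), were found for 69 members. On both strands, the NRF1 letters GCGCANGCG were in 21 of the 69 (30.4%), against 7.03% of 27025 genes with a window. The letters CCGGAAG, read by ETS factors such as GABP, were in 16 (23.2% against 9.93%), and the YY1 letters AAGATGGCG in 8 (11.6% against 1.64%). The 27025 genes were not limited to those expressed in these libraries, whereas the members were, so the sets compared are unlike. Shares among expressed genes were not computed. The median log2 fold change was -0.04 in members with the NRF1 letters and -0.05 in those without, and -0.03 and -0.06 for the ETS letters. The window of Sdha, at chr13:74350191-74350490 on the minus strand, is shown because it held the NRF1 letters 3 times, in capitals.

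Sdha: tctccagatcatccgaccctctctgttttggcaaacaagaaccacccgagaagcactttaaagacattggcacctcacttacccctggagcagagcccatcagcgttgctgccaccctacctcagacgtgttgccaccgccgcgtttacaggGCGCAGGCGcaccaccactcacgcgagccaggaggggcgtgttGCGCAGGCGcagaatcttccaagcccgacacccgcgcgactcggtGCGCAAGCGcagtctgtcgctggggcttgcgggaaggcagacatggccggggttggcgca

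The isoform pair Cox8a and Cox8b differed in these letters. Both windows are shown, Cox8a from chr19:7217567-7217866 and Cox8b from chr7:140900397-140900696, both on the minus strand, with the ETS letters (here CTTCCGG, the reverse complement) in capitals. Cox8a held them 2 times, and Cox8b held none of the 3 motifs. The window of Cox7a1 held none either, but nor did that of its partner Cox7a2, so that pair did not differ. None of the 3 motifs was in the windows of 32 of the 69 members. The window of Cycs held the NRF1 letters 1 time. A match of letters is not a bound site, and its absence says only that these letters are not in this window.

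Cox8a: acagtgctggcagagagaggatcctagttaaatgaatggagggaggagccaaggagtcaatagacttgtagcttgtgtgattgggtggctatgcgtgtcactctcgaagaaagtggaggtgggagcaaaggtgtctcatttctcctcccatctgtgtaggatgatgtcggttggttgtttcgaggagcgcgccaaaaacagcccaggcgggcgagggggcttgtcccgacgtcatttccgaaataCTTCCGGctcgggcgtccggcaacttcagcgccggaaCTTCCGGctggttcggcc

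Cox8b: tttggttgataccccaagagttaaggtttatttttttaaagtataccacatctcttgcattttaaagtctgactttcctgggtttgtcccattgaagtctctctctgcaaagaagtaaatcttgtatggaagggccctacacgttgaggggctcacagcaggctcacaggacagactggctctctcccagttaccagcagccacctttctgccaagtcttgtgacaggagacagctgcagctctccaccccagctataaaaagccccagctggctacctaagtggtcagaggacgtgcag

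The genes that build and supply the chain were taken as 10 further lists, and 0 genes of any of them passed the test. Assembly factors of complex I (14 tested, 8 below 0) and of complexes II, III and V (14 tested, 8 below 0) had medians of -0.01. Those of complex IV (19 tested, 11 below 0) had a median of -0.02. Tmem126b had the lowest p of the complex I assembly factors (-0.12, SE 0.09). Cox15, which makes the haem a of complex IV, had 25.6 ± 4.94 CPM in the controls and 19.8 ± 3.35 CPM in Wnt gain of function (SD, n = 6 each; log2 fold change -0.37, SE 0.14, adjusted p = 0.515 in edgeR). Atpaf2, an assembly factor of the ATP synthase, had 28.0 ± 4.47 and 33.7 ± 3.73 CPM (0.27, SE 0.11, adjusted p = 0.605). Of the 17 enzymes of the tricarboxylic acid cycle, 17 were below 0, against 49.6% of all tested genes. Their median was -0.07, with single values from -0.16 to -0.01, and Sucla2 had the lowest p (-0.16, SE 0.10). Coenzyme Q synthesis (13 tested) had a median of -0.07 with 11 below 0, and its lowest p was that of the hydroxylase gene Coq6 (-0.13, SE 0.08). The carriers of nucleotides and phosphate (9 tested) had a median of -0.05 with 7 below 0, and Slc25a31, a germline carrier with 2.67 ± 1.79 and 1.68 ± 0.638 CPM (SD, n = 6 each), had the lowest p (-0.69, SE 0.40). Among 15 regulators of mitochondrial biogenesis the median was -0.07 with 11 below 0, and Esrrb, an oestrogen-related receptor gene, had the lowest p (-0.48, SE 0.20, adjusted p = 0.626). Genes of mtDNA transcription and replication (20 tested) had a median of -0.02 with 16 below 0. The lowest p among them was that of the mtDNA polymerase gene Polg (0.18, SE 0.12). Mitochondrial import (20 tested) had a median of 0.01 with 8 below 0, and the 74 mitochondrial ribosomal proteins one of 0.00 with 36 below 0, near the 49.6% of all tested genes. The lowest p belonged to Hspa9, the mitochondrial Hsp70, among the import genes (-0.09, SE 0.06) and to Mrps7 among the ribosomal proteins (0.18, SE 0.09). Whether the genes of a list moved together between libraries was not tested.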

How the data were processed

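Read counts per Ensembl gene and library were taken as deposited; the submitters' processing notes name Subread, featureCounts and edgeR, without versions. The sources used here do not give genome build, strand or multi-mapping settings. The authors' deposited comparison table, with log2 fold changes and p-values, was used only where named. Of 41422 rows, 622 repeated a gene ID with equal counts and were left out.

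Counts were filtered with filterByExpr (minimum count 10; 14774 genes), TMM-scaled and compared with the robust quasi-likelihood test of edgeR 4.0.16 (R 4.3.3) over all 12 libraries, group as the only term, two-sided, Benjamini-Hochberg adjustment over all tested genes, threshold 0.05. CPM uses TMM-scaled library sizes, except for the 1 CPM limit. SE comes from the F statistic, and intervals are 95%. Lengths, coordinates and 50-base stretches come from GENCODE M21, with 1 representative transcript per gene. The test was also run on simulated counts of independent libraries. These had no library sets or close pairs, so they cannot show how the p-values behave for the real libraries. Alternatives included DESeq2 1.42.0, limma 3.58.1 (voom), other scalings, filters and blocks, and each library left out. Members and lists were chosen with earlier results of these data known. Named genes are the mtDNA members, the lowest p and the extreme values of each complex, members with an unadjusted p under 0.05, isoform pairs, and the lowest p of each list. Sdha, Sdhc, Atp5b, Axin2, Hey2, Rgs5 and genes named with levels per length or with library sets were added after their values were seen. The promoter letters of NRF1 and YY1 were shortened by 1 base after a first search with longer ones, which gave fewer matches.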

Additional observations from a re-analysis of the deposited data

How the results depend on the processing

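The number of members passing the test was 0 higher and 0 lower under every alternative tried, except that 1 (Cox8b) passed as lower when the library sets were a block. The counts over all genes, 64 higher and 10 lower, moved more. They were 8 and 2 at an adjusted p under 0.01, 135 and 25 with DESeq2, 3 and 3 with limma-voom, 195 and 100 when the sets were a block, 108 and 21 with the Ddx3y covariate, which was chosen after seeing the data, 0 and 1 with the closest pairs summed, and 97 higher without a count filter. With 1 library left out they ranged from 34 to 149 higher and from 4 to 28 lower, the highest of both without Wnt gain of function 5. Whether replicate numbers pair the libraries is not given in the labels. The correlations of same-numbered deviations ran from -0.377 to 0.463. The library sets were drawn from the same deviations, so these correlations cannot decide it. With the replicate block 47 genes were higher, 8 lower and 0 of them members.

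Members near 0 changed sign. With library size alone, Cox4i1 was at 0.0017 and Cox6b1 at 0.00119; with the Ddx3y covariate, Cox6b1 was at 0.00445, Sdhd at 0.0155 and mt-Nd5 at 0.00143. With 1 library left out, log2 fold changes ranged for Cox4i1 from -0.0543 to 0.0184, Cox6a2 from -0.163 to 0.0254, Cox6b1 from -0.0477 to 0.0242, Cox7a2 from -0.0688 to 0.00256, Cox8a from -0.0117 to 0.0712, Cyc1 from -0.0839 to 0.00134, Ndufa4l2 from -0.313 to 0.0846, Sdhd from -0.0932 to 0.00779, Uqcr11 from -0.00676 to 0.115 and mt-Nd5 from -0.329 to 0.00433. The cause was not tested. The difference in the mtDNA share ranged from -0.596 to -0.147 percentage points. Intervals cover the spread between these libraries only.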
